A study of Mus musculus with 20 samples.

Results

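The diet effect described here is that of high-fat feeding in sham-operated mice, Sham Chow vs. Sham HFD, which set 10 of the 20 mice of the series against each other. Liver RNA was measured in 5 Sham HFD and 5 Sham Chow mice, which were chosen by their group labels alone and not by any measured value. All were male C57BL/6J mice made obese on HFD for 12 weeks, sham-operated, and then kept for 8 weeks either on HFD (Sham HFD) or on chow (Sham Chow). Each mouse, taken at random from a larger cohort, gave 1 liver library of polyadenylated RNA. The paper describes these transcriptomes as those of the fasted state. Sham Chow is thus a group that had been obese and was returned to chow, not a group that never ate HFD. The paper reports that Sham HFD mice weighed more than all other groups, and it treats body weight as a confounding variable. Sham Chow vs. Sham HFD therefore also compares lean with obese mice, and diet and body weight cannot be told apart in it. The same holds for its difference from the diet effect in RYGB mice, where both groups were lean. The sources used here give neither the cage nor the age at collection. The other 10 mice had Roux-en-Y gastric bypass (RYGB), 5 on each diet, and are used here only to test where the diet effect differed.

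The liver takes up, stores and exports fat, makes most plasma proteins, and clears drugs, hormones and bile acids through cytochrome P450 enzymes and conjugating enzymes. Much of this gene expression is sexually dimorphic in mice: pulses of pituitary growth hormone, acting through JAK2 and STAT5B, keep a male set of genes high and a female set low. During long high-fat feeding the liver can accumulate triglyceride, and stellate cells (which lay down collagen) and macrophages are known to take part in the response of the tissue.

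Between 14604854 and 22537498 reads were assigned to genes in each mouse, and 12289 genes with at least 2 read counts per 1000000 (CPM), before scaling by TMM factors, in at least 3 of the 20 mice were tested. The CPM printed use TMM-scaled library sizes. The hepatocyte gene *Alb* was at 53837 to 76863 CPM in the 10 sham mice, and the count of *Xist*, which marks female cells, was at most 8. TMM factors were 0.916 to 0.993 in Sham Chow and 1.048 to 1.057 in Sham HFD, so the choice of scaling bears on small changes. With library size only, the median log2 fold change of all genes moved from -0.0047 to 0.12. Positions are on GRCm38 (mm10).

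Liver gene expression differed broadly between the diets. Called genes, with an adjusted p under 0.05 in edgeR's quasi-likelihood test, were 1337 (10.9%) higher and 1319 (10.7%) lower in Sham HFD, of which 359 and 154 differed by more than 2-fold. Scaled by library size only, the split was 2279 higher and 554 lower. In 1042 genes (8.48%) all 5 Sham HFD mice lay above all 5 Sham Chow mice, and in 990 (8.06%) all lay below. Log2 fold changes below are of Sham HFD over Sham Chow, with the standard error (SE), and values in parentheses after a gene are its log2 fold change, SE and adjusted p. Where all values of a gene are printed, they are in ascending order within each group. An exact permutation test of 5 against 5 cannot give a two-sided p below 0.00794, which any gene without overlap reaches.

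Beside each list of genes described, the shares of all tested genes, 10.9% higher and 10.7% lower, are the background. A gene that passed the filter only through Sham HFD had to be higher there, so counts of lists that hold such genes are descriptions. The lists with the largest share of members called in a single direction were cytosolic ribosomal proteins, with 76 of 78 tested members lower, male-biased liver genes, with 22 of 26 lower, the Cyp2c family, with 11 of 13 lower, stellate cell markers, with 9 of 11 higher, and extracellular matrix genes, with 26 of 33 higher. At the other end, 0 of 18 core clock genes, 0 of 12 genes encoded by mitochondrial DNA and 0 of 11 sinusoidal endothelial markers were called by edgeR's test, with 2, 3 and 1 at an unadjusted p under 0.05 and 1, 0 and 0 called by DESeq2. This does not show that they were unchanged. All 11 endothelial markers had a positive log2 fold change, with a median of 0.35, and 11 of the 12 mitochondrial genes a negative one. In the lists below printed with 0 members in a direction and 1 or more in the other, DESeq2 also called 0 in that direction. At an unadjusted p under 0.05 there were 3 lower in triglyceride synthesis, 2 lower in fatty acid oxidation, 1 higher in cholesterol synthesis and 1 lower among interferon-stimulated genes, and 0 in the others so printed.

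**Figure D1:**
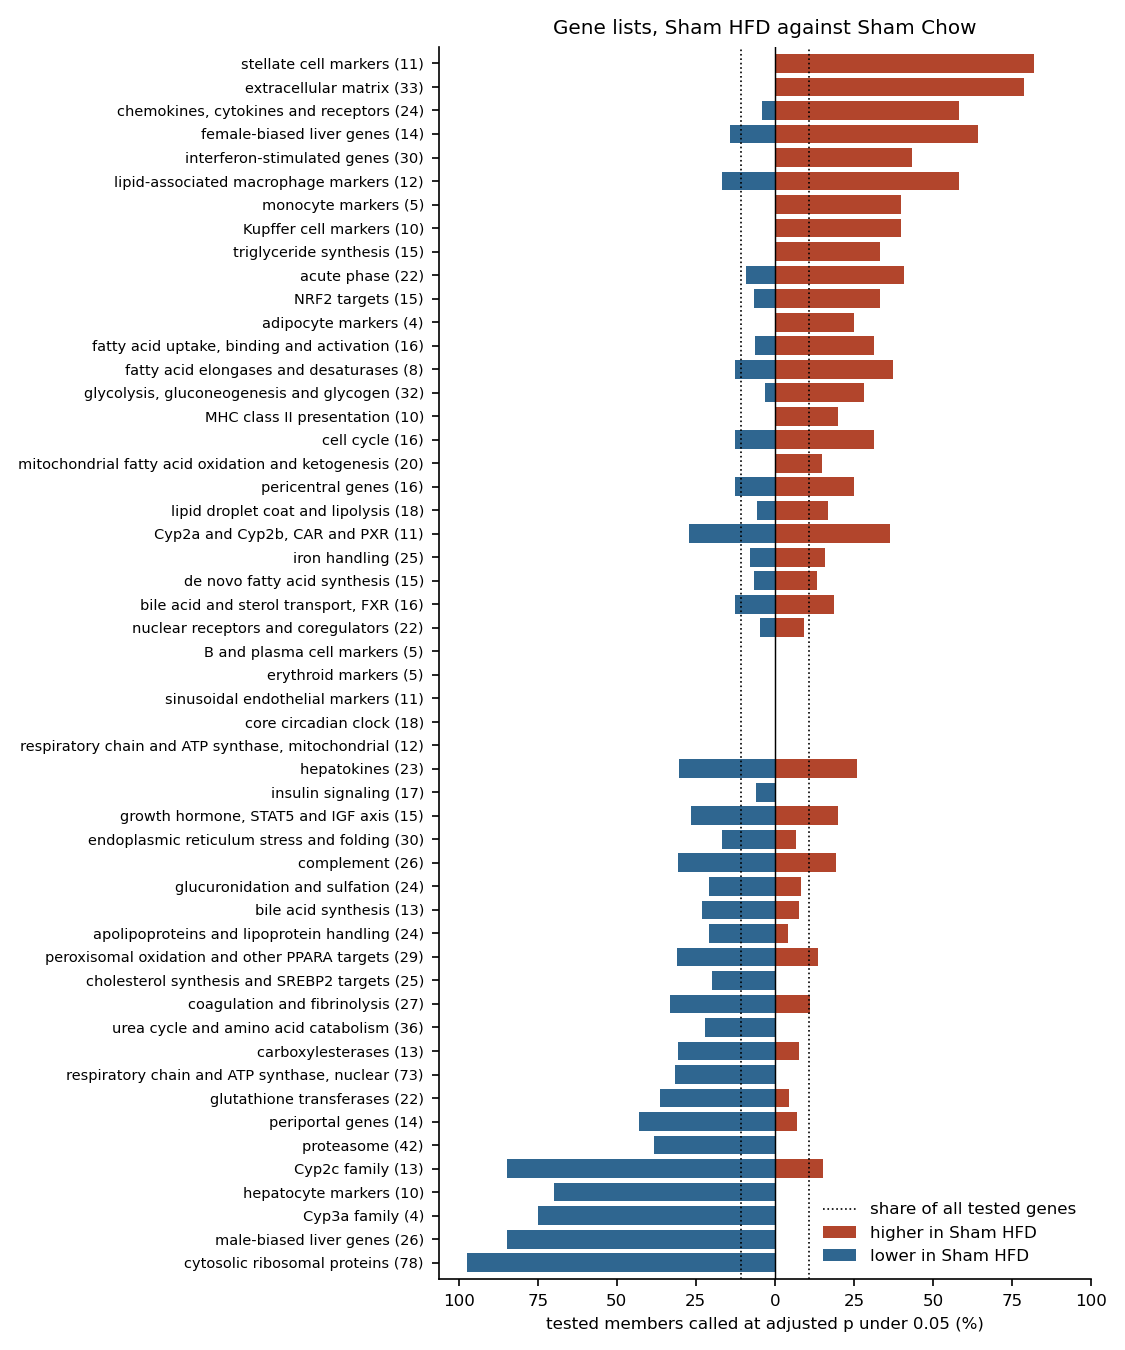
Share in percent (x axis) of the tested members of each gene list with at least 4 members tested (number tested in parentheses) called higher (right, red) or lower (left, blue) in Sham HFD than in Sham Chow at an adjusted p under 0.05, with dotted lines at the shares of all tested genes, 10.9% and 10.7%. Cytosolic ribosomal proteins stand at the bottom with 76 of 78 members lower, and stellate cell markers at the top with 9 of 11 higher.

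Male-biased liver genes were low in Sham HFD. Of 26 genes known for higher expression in male than in female mouse liver, all tested, 22 were lower and 0 higher, with a median log2 fold change of -1.98 against -0.0047 over all genes, and in 17 of them the groups did not overlap. *Hsd3b5* (ENSMUSG00000038092, chromosome 3 from 98618634 to 98630252), a 3-beta-hydroxysteroid dehydrogenase family enzyme of male liver, measured 61.5, 92.0, 189, 194 and 195 CPM in Sham Chow and 0.0439, 0.0599, 0.370, 0.507 and 4.87 CPM in Sham HFD. All Sham HFD mice lay far below the lowest Sham Chow mouse, and the log2 fold change was -7.07 (SE 0.74, adjusted p = 3.71e-06). *Serpina1e* (ENSMUSG00000072849, chromosome 12 from 103946931 to 103958975), an alpha-1-antitrypsin family gene, measured 2443, 2981, 4480.1, 4613 and 5233 CPM in Sham Chow and 91.2, 116, 129, 133 and 517 CPM in Sham HFD. The groups were again apart, with a log2 fold change of -4.32 (SE 0.45, adjusted p = 3.71e-06).

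*Cyp4a12a* (ENSMUSG00000066071, chromosome 4 from 115299046 to 115332815), an omega-hydroxylase of fatty acids, measured 193, 217, 226, 230.3 and 313 CPM in Sham Chow and 19.2, 36.6, 46.3, 48.6 and 50.7 CPM in Sham HFD, a log2 fold change of -2.55 (SE 0.33, adjusted p = 2.75e-05) with no overlap. *Slco1a1* (ENSMUSG00000041698, chromosome 6 from 141907282 to 141946962), an uptake transporter for organic anions, measured 439, 492, 492, 526 and 589 CPM in Sham Chow and 10.4, 25.5, 33.1, 49.4 and 234 CPM in Sham HFD, and although a single Sham HFD mouse reached 234 CPM, none reached Sham Chow. The log2 fold change was -2.85 (SE 0.52, adjusted p = 7.64e-04). That mouse, Sham HFD replicate 1, also held the highest Sham HFD level of *Hsd3b5* and *Serpina1e*. The summed level of the list was 14377 CPM in it and 5893 to 7323 CPM in the other 4 Sham HFD mice, against 18797 to 40087 CPM in Sham Chow. Without any single mouse, between 20 and 22 members were lower.

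The major urinary proteins, pheromone carriers that male liver secretes in large amounts, were among the largest falls: log2 fold changes were -6.50 for *Mup19*, -4.37 for *Mup15*, -3.78 for *Mup14*, -3.63 for *Mup7*, -3.60 for *Mup12* and -3.33 for *Mup11*, each with no overlap between the groups. The spread among Sham Chow mice was wide, with *Mup7* at 1494, 1562, 3055, 7699.7 and 7986 CPM in Sham Chow and 93.0, 97.9, 143, 368 and 1057 CPM in Sham HFD. The calls of *Mup15* and *Mup19* were lost in limma-voom, and that of *Mup15* also under the replicate block and without Sham Chow replicate 5. In that mouse *Mup15* was at 1592 CPM, and without it the log2 fold change was -1.77. *Mup* genes, the *Cyp4a12* pair and the *Serpina1* genes are near-identical copies, so the split of reads among the members of each family is uncertain. The elongase *Elovl3* (-1.91, SE 0.41, adjusted p = 0.00249), the oxysterol 7-alpha-hydroxylase *Cyp7b1* (-1.86, SE 0.28, adjusted p = 9.89e-05) and the complement component *C6* (-1.61, SE 0.24, adjusted p = 9.89e-05) fell as well. The remaining large falls outside these families were *Cib3* at -4.71, a calcium- and integrin-binding family gene, *Adgrf1* at -4.58, an adhesion G protein-coupled receptor, and *Cspg5* at -3.44, a proteoglycan.

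Female-biased genes moved the other way in part. Of 25 such genes 14 passed the filter, and of these 9 were higher and 2 lower. A gene that passed only because it was high in Sham HFD had to differ, so this count is a description. *Cyp2b9* (ENSMUSG00000040660, chromosome 7 from 26173411 to 26210661), a cytochrome P450 of female liver, measured 0.667, 0.786, 1.97, 8.02 and 19.4 CPM in Sham Chow and 80.6, 219, 274, 328 and 395 CPM in Sham HFD, and the lowest Sham HFD mouse lay above the highest Sham Chow mouse (log2 fold change 5.45, SE 0.74, adjusted p = 4.60e-05). *Cyp2a4* (ENSMUSG00000074254, chromosome 7 from 26307169 to 26315088), a testosterone 15-alpha-hydroxylase, measured 0.0966, 0.139, 0.485, 0.673 and 1.57 CPM in Sham Chow and 12.6, 16.1, 17.6, 26.2 and 38.5 CPM in Sham HFD, again with no overlap (log2 fold change 5.34, SE 0.75, adjusted p = 6.02e-05).

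The hydroxyacid oxidase *Hao2* (ENSMUSG00000027870, chromosome 3 from 98874521 to 98893239) measured 0, 0.182, 0.259, 0.386 and 0.714 CPM in Sham Chow and 4.67, 6.20, 9.71, 10.4 and 18.8 CPM in Sham HFD, a log2 fold change of 5.08 (SE 0.67, adjusted p = 3.00e-05), and *Slc22a27* (ENSMUSG00000067656, chromosome 19 from 7864388 to 7966027), an organic anion transporter family gene, measured 0.740, 1.03, 1.30, 2.14 and 3.26 CPM in Sham Chow and 17.2, 22.3, 25.1, 26.2 and 38.5 CPM in Sham HFD, a log2 fold change of 3.94 (SE 0.41, adjusted p = 3.71e-06). Neither gene's groups overlapped. *Cyp2b13*, another P450 of female liver, measured 0, 0, 0, 0.290 and 0.428 CPM in Sham Chow and 2.49, 7.21, 7.61, 10.1 and 10.5 CPM in Sham HFD, nearly absent in Sham Chow (log2 fold change 5.78, SE 0.67, adjusted p = 2.71e-05). The members that fell were *Cyp2c40* (-2.77, SE 0.78, adjusted p = 0.0157) and *Cyp2c69* (-2.96, SE 1.01, adjusted p = 0.0416), both with overlapping groups, and without any single mouse other than Sham Chow replicates 2 and 3 at most 1 of them was called. *Cyp2a4*, *Cyp2b9* and *Cyp2b13* have close copies, which the counting could have mixed.

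**Figure D2:**
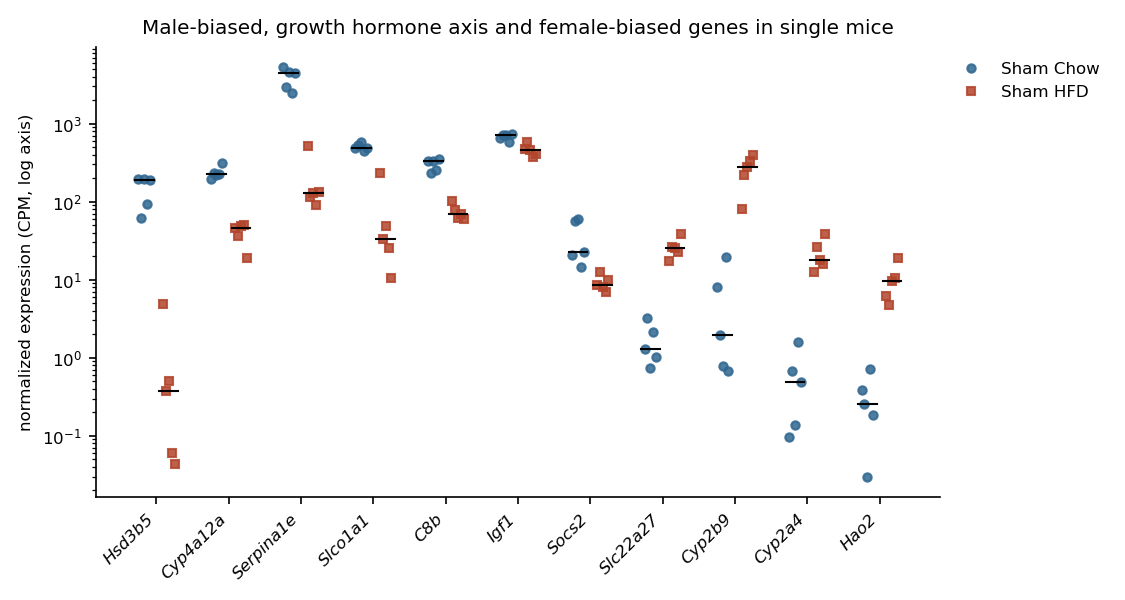
Normalized expression (CPM, log axis) of male-biased genes, the complement gene *C8b*, growth hormone axis genes and female-biased genes in each of the 5 Sham Chow (blue circles) and 5 Sham HFD (red squares) mice, with black lines at the group medians and a CPM of 0 drawn at 0.03. *Hsd3b5* lies between 61.5 and 195 CPM in Sham Chow and between 0.0439 and 4.87 in Sham HFD, and *Cyp2b9* between 0.667 and 19.4 and between 80.6 and 395.

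Genes of the growth hormone axis itself changed in both directions, with 3 of 15 tested members higher, 5 without Sham Chow replicate 1, and 4 lower, against 5 and 3 with library size only. *Igf1*, the growth factor that the liver secretes under growth hormone, measured 587, 661, 718, 719 and 744 CPM in Sham Chow and 375, 411, 459, 476 and 572 CPM in Sham HFD. No Sham HFD mouse reached the lowest Sham Chow mouse, and the log2 fold change was -0.58 (SE 0.11, adjusted p = 6.97e-04). *Socs2*, a STAT5-induced inhibitor of the growth hormone receptor, measured 14.6, 20.9, 22.7, 56.6 and 59.4 CPM in Sham Chow and 7.01, 7.98, 8.58, 9.78 and 12.7 CPM in Sham HFD, so that all Sham HFD mice lay below Sham Chow, where 2 mice stood above the other 3 (log2 fold change -1.92, SE 0.43, adjusted p = 0.00354). *Igfbp2*, an IGF-binding protein, measured 359, 588, 595, 691 and 787 CPM in Sham Chow and 129, 151, 151, 196 and 205 CPM in Sham HFD, with no overlap and a log2 fold change of -1.86 (SE 0.23, adjusted p = 2.06e-05). *Stat5a* rose (0.60, SE 0.14, adjusted p = 0.00366), whereas for the receptor *Ghr* (0.13, SE 0.10, adjusted p = 0.331), *Jak2* (0.26, SE 0.10, adjusted p = 0.0585) and *Stat5b* (0.12, SE 0.11, adjusted p = 0.446) no change was called.

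Promoter sequences from RefSeq (GRCm38.p6) are shown for the members of the ribosomal and male-biased lists with the smallest p among those with an entry, since these lists moved most evenly in one direction. Each run is the 250 bases before the start, 5′ to 3′ on the gene's strand, and capitals are kept for the motifs searched. Gene positions in the text are those of GENCODE M21, and the RefSeq start of *Hsd3b5* lies upstream of that span and that of *Serpina1e* inside it.
*Hsd3b5* (chr3:98645535-98645784, minus strand): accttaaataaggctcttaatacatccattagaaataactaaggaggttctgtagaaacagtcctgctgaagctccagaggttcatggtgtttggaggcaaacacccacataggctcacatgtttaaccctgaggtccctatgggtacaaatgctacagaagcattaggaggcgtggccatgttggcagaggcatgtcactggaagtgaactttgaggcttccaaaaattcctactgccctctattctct
*Serpina1e* (chr12:103956898-103957147, minus strand): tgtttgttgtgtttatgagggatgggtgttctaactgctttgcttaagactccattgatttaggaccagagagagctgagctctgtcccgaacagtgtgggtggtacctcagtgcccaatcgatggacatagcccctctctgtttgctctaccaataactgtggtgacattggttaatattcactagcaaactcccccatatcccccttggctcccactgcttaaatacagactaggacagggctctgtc
*Rpsa* (chr9:120127516-120127765, plus strand): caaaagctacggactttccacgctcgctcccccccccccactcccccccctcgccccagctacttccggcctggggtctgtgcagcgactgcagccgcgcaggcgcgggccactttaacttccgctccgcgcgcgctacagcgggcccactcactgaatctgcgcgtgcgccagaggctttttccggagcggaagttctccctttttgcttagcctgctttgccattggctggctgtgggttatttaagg
*Rps4x* (chrX:102189392-102189641, minus strand): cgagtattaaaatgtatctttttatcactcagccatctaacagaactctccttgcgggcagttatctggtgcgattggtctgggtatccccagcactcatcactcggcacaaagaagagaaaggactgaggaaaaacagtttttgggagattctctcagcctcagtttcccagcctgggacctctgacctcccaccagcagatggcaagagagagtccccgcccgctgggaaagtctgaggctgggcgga
No letters are in capitals, because none of the 5 motifs, searched on both strands, lies in these windows, which says only that these letters are not in them. The STAT site TTCNNNGAA was in 1 of 18 starts of 17 male-biased genes (5.56%) and in 7.02% of all 32851 starts, the E-box CACGTG in 0 of 18 and in 6.02% of all. Of 67 starts of 57 ribosomal protein genes, 7 (10.4%) held the E-box and 7 (10.4%) the antioxidant element TGACNNNGC, which 10.2% of all starts held. The sterol element TCACNCCAC was in 0 of either list and in 1.05% of all starts, and 2 copies of AGGTCA 1 base apart were in 0 and in 0.0335%. Base composition differed between the lists, with a median GC content of 58% for ribosomal protein starts, 40% for male-biased starts and 52.4% over all starts.

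Transcripts of the cytosolic ribosome were lower in Sham HFD. Of 79 ribosomal protein genes 78 were tested, 76 of them were lower and 0 higher, and in 67 the groups did not overlap. The median log2 fold change was -0.66, the range -1.30 to -0.38. The exceptions were *Rpl41* (-0.71, SE 0.29, adjusted p = 0.0838) and *Rps10* (-0.51, SE 0.29, adjusted p = 0.224), for which no change was called. *Rpsa* (ENSMUSG00000032518, chromosome 9 from 120127689 to 120132369), a protein of the small subunit that also binds laminin, measured 378, 379.8, 457, 459 and 476 CPM in Sham Chow and 239, 248, 249, 260.0 and 266 CPM in Sham HFD. *Rps4x* (ENSMUSG00000031320, chromosome X from 102184941 to 102189394), a small subunit protein encoded on the X chromosome, measured 219.6, 228, 243, 257 and 258 CPM in Sham Chow and 150.3, 158, 167, 168 and 172 CPM in Sham HFD. Both genes had groups that did not overlap, with log2 fold changes of -0.77 (SE 0.083, adjusted p = 4.48e-06) and -0.56 (SE 0.067, adjusted p = 1.10e-05).

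The summed level of the ribosomal list was 10979 to 14892 CPM in Sham Chow and 8015 to 9368 CPM in Sham HFD. With library size only, 71 members were lower and the median was -0.53, and without any single mouse at least 71 were lower. The elongation factor *Eef1a1*, among the most abundant of all the genes that fell, measured 4145, 4728, 4728, 4757 and 4793 CPM in Sham Chow and 3549.9, 3666, 3679, 3709.8 and 3791 CPM in Sham HFD with no overlap (-0.33, SE 0.064, adjusted p = 0.00113), a call lost with library size only. As ribosomal protein genes have many processed pseudogenes, reads could be shared with these.

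Smaller falls were seen in proteasome and respiratory chain genes. Of 42 proteasome subunits, which form the protease that degrades ubiquitinated proteins, 16 were lower and 0 higher, with a median of -0.19. *Psmd9*, a chaperone of the regulatory particle, measured 44.2, 45.05, 48.4, 52.8 and 55.4 CPM in Sham Chow and 29.6, 30.8, 31.1, 36.4 and 38.1 CPM in Sham HFD, with no overlap (log2 fold change -0.57, SE 0.12, adjusted p = 0.00192). With library size only, 3 of the 42 were lower and 1 higher. Among 73 nuclear genes of the respiratory chain and ATP synthase, 23 were lower and 0 higher, with a median of -0.23. *Cox7a2*, a subunit of cytochrome c oxidase, measured 107, 125, 126, 139.7 and 145 CPM in Sham Chow and 90.8, 94.2, 95.1, 98.0 and 101 CPM in Sham HFD, and the groups did not overlap (log2 fold change -0.42, SE 0.087, adjusted p = 0.00178). This count fell to 3 with library size only, to 8, 10 and 12 without Sham Chow replicates 4, 5 and 3, and to between 10 and 15 without any one of Sham HFD replicates 1 to 4. Of 12 mitochondrially encoded genes tested 0 were called, with a median of -0.21.

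Enzymes of drug and steroid metabolism fell in Sham HFD, with the largest shares of the detoxification lists in the Cyp3a and Cyp2c families. Of the 9 Cyp3a genes 4 passed the filter and 3 of these were lower. *Cyp3a11* (ENSMUSG00000056035, chromosome 5 from 145854426 to 145879964), the main Cyp3a enzyme of mouse liver and a PXR target, measured 4978, 5279, 5305, 5673 and 5750.1 CPM in Sham Chow and 507, 724, 849, 883 and 1031 CPM in Sham HFD, with a wide gap between the groups (log2 fold change -2.76, SE 0.21, adjusted p = 5.33e-08). *Cyp3a25* was lower as well (-0.54, SE 0.13, adjusted p = 0.00506). The third, *Cyp3a59* (-0.80, SE 0.27, adjusted p = 0.0363), lost its call with library size only, under the replicate block and without any one of 6 mice. *Cyp3a13*, at -0.073, was not called (adjusted p = 0.614).

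In the Cyp2c family, 11 of 13 tested genes were lower and 2 higher. *Cyp2c29* (ENSMUSG00000003053, chromosome 19 from 39269405 to 39330713), which oxidizes arachidonic acid and drugs, measured 1498, 1529, 1557, 1588 and 1951 CPM in Sham Chow and 417, 449.8, 627, 638 and 703 CPM in Sham HFD. *Cyp2c54* (ENSMUSG00000067225, chromosome 19 from 40037940 to 40073827) measured 222, 348, 381, 484 and 516 CPM in Sham Chow and 21.1, 24.2, 30.5, 61.2 and 89.9 CPM in Sham HFD. The groups of both genes were apart, and the log2 fold changes were -1.52 (SE 0.21, adjusted p = 4.34e-05) and -3.11 (SE 0.38, adjusted p = 1.29e-05). In the other direction, *Cyp2c39* measured 1.90, 2.17, 2.79, 3.07 and 3.77 CPM in Sham Chow and 6.84, 8.00, 8.64, 9.29 and 9.76 CPM in Sham HFD, also without overlap (log2 fold change 1.64, SE 0.23, adjusted p = 4.94e-05), and *Cyp2c38* rose likewise (1.39, SE 0.20, adjusted p = 9.48e-05). These genes are close copies of each other, whose reads may be mixed.

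Among other detoxification genes, *Ces2a* (ENSMUSG00000055730, chromosome 8 from 104734003 to 104741634), a carboxylesterase that cleaves drug esters and acylglycerols, measured 479.7, 495, 518, 551 and 552 CPM in Sham Chow and 91.3, 99.7, 104, 108 and 121 CPM in Sham HFD. The groups were far apart, with a log2 fold change of -2.31 (SE 0.15, adjusted p = 6.61e-09), the smallest p of the 13 carboxylesterases tested, of which 4 were lower and 1 higher, the last in only 2 of the 10 fits without a mouse. Of 22 glutathione transferases, which conjugate electrophiles, 8 were lower and 1 higher. *Gstp1* measured 764, 970.0, 1050.5, 1072 and 1139 CPM in Sham Chow and 251.9, 272, 302, 312 and 421 CPM in Sham HFD, with no overlap between groups (log2 fold change -1.68, SE 0.19, adjusted p = 7.71e-06). *Gsta2* measured 47.4, 55.0, 61.3, 67.6 and 68.5 CPM in Sham Chow and 14.3, 16.3, 18.1, 24.5 and 26.2 CPM in Sham HFD, likewise without overlap (log2 fold change -1.59, SE 0.22, adjusted p = 4.96e-05). *Gstp1* and *Gstp2* are close copies. Of 24 glucuronosyl- and sulfotransferases 5 were lower and 2 higher, of which 1 was left in 8 of the 10 fits without a mouse. The fall with the smallest p was that of *Ugt2b1* (-1.097, SE 0.17, adjusted p = 1.39e-04).

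Not all of this chemistry fell. Of 15 targets of NRF2, the transcription factor of the antioxidant response, 5 were higher and 1 lower. Those that rose included the pentose phosphate enzyme *Pgd* (0.65, SE 0.14, adjusted p = 0.00281), the sulfiredoxin *Srxn1* (0.56, SE 0.12, adjusted p = 0.00329), the heme oxygenase *Hmox1* (0.78, SE 0.19, adjusted p = 0.00573) and *Nfe2l2*, which encodes NRF2 (0.47, SE 0.12, adjusted p = 0.00833). In the list of Cyp2a and Cyp2b enzymes with their regulators CAR and PXR, 4 of 11 were higher and 3 lower. The 4 that rose, *Cyp2a22* (3.38, SE 0.41, adjusted p = 1.29e-05) with *Cyp2a4*, *Cyp2b9* and *Cyp2b13*, include 3 of the female-biased genes above, while *Cyp2b10*, the usual marker of CAR activity, fell (-2.48, SE 0.52, adjusted p = 0.00215). In the pericentral zone, where most P450 enzymes are made, *Cyp1a2* measured 235, 476, 575, 615 and 653 CPM in Sham Chow and 146, 159.7, 183, 187 and 228 CPM in Sham HFD, without overlap and with a log2 fold change of -1.499 (SE 0.26, adjusted p = 4.72e-04).

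**Figure D3:**
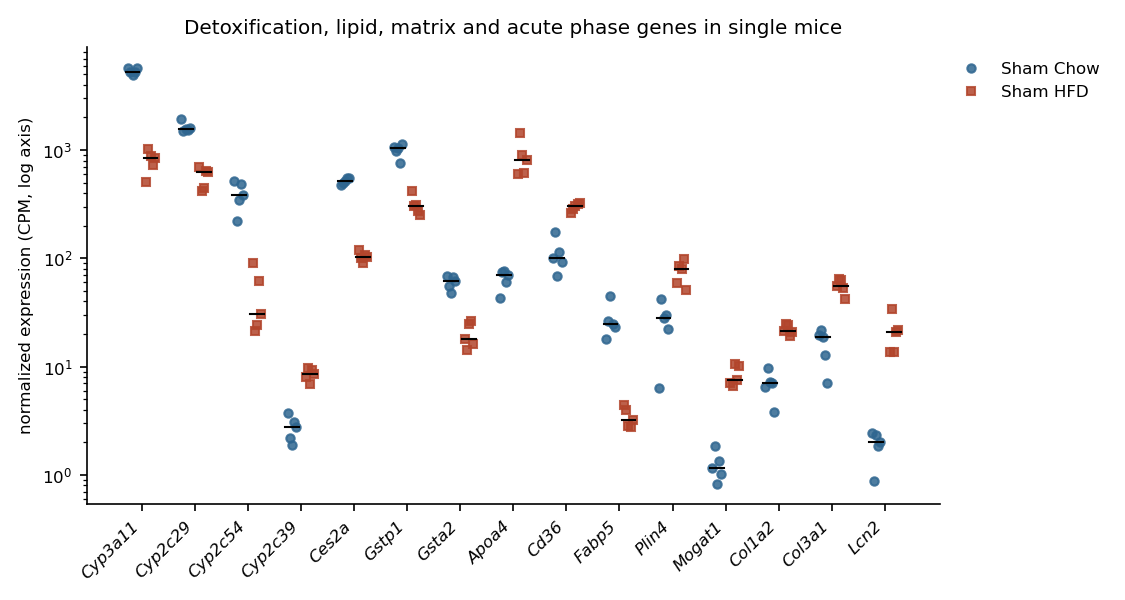
Normalized expression (CPM, log axis) of detoxification, lipid, matrix and acute phase genes in each of the 5 Sham Chow (blue circles) and 5 Sham HFD (red squares) mice, with black lines at the group medians. The 15 genes shown have no overlap between the groups: *Cyp3a11* lies between 4978 and 5750 CPM in Sham Chow and between 507 and 1031 in Sham HFD, and *Apoa4* between 43.0 and 76.8 and between 606 and 1441.

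Lipid genes changed gene by gene rather than as whole lists. Of 16 uptake, binding and activation genes 5 were higher and 1 lower. *Cd36* (ENSMUSG00000002944, chromosome 5 from 17781690 to 17888801), a fatty acid translocase, measured 68.3, 91.8, 101, 113 and 176 CPM in Sham Chow and 263, 287, 308, 318 and 325 CPM in Sham HFD, and all Sham HFD mice lay above Sham Chow (log2 fold change 1.45, SE 0.23, adjusted p = 2.29e-04). *Fabp5*, a fatty acid-binding protein, went the other way with 18.1, 23.2, 24.9, 26.3 and 45.2 CPM in Sham Chow and 2.76, 2.83, 3.25, 3.98 and 4.46 CPM in Sham HFD, again without overlap (log2 fold change -3.00, SE 0.32, adjusted p = 3.71e-06). *Fabp2* (1.25, SE 0.21, adjusted p = 4.09e-04) and the lipoprotein receptor *Vldlr* (1.30, SE 0.27, adjusted p = 0.00180) rose. Without Sham Chow replicates 3 and 4 in turn, 3 and 2 members were lower.

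For triglyceride synthesis 5 of 15 genes were higher and 0 lower, with 1 lower without Sham Chow replicate 1 or 4 or Sham HFD replicate 2. *Mogat1*, a monoacylglycerol acyltransferase, measured 0.833, 1.03, 1.16, 1.36 and 1.86 CPM in Sham Chow and 6.66, 7.07, 7.55, 10.2 and 10.6 CPM in Sham HFD, without overlap, and had the largest change of the list (log2 fold change 2.75, SE 0.53, adjusted p = 0.00116). *Mogat1* passed the filter only through Sham HFD and so had to differ, and its rise is a description. *Agpat2* (0.28, SE 0.073, adjusted p = 0.0109), *Gpam* (0.58, SE 0.17, adjusted p = 0.0203) and *Gpat2* (0.67, SE 0.20, adjusted p = 0.0206), enzymes of the glycerol phosphate path, rose by less, and 3, 2 and 3 members were called without Sham Chow replicate 3, Sham Chow replicate 5 and Sham HFD replicate 4. Of 18 genes of lipid droplet coats and lipolysis, 3 were higher and 1 lower. The 3 became 6 without Sham Chow replicate 2 and 1 without Sham Chow replicate 3 or 5 or Sham HFD replicate 2 or 3. *Plin4*, a droplet coat protein, measured 6.37, 22.2, 28.3, 30.2 and 42.1 CPM in Sham Chow and 51.2, 59.6, 79.4, 84.3 and 98.7 CPM in Sham HFD, so the groups did not overlap (log2 fold change 1.53, SE 0.38, adjusted p = 0.00723). *Cidec*, which enlarges droplets, measured 6.23, 10.6, 15.2, 17.6 and 64.0 CPM in Sham Chow and 29.2, 56.1, 63.0, 98.5 and 109 CPM in Sham HFD, where Sham Chow replicate 2, at 64.0 CPM, lay among the Sham HFD mice (log2 fold change 1.65, SE 0.53, adjusted p = 0.0314). Its call was lost without any one of 6 mice. The lipase *Pnpla2* fell (-0.54, SE 0.13, adjusted p = 0.00472).

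De novo fatty acid synthesis showed few calls, 2 higher and 1 lower of 15, with 1 higher in 8 of the 10 fits without a mouse. *Srebf1*, the lipogenic transcription factor, measured 162, 177, 204, 216 and 287 CPM in Sham Chow and 314, 396, 403, 418 and 466 CPM in Sham HFD, without overlap (log2 fold change 0.93, SE 0.21, adjusted p = 0.00321). *Mlxipl*, which encodes the carbohydrate-responsive factor ChREBP, fell (-0.32, SE 0.10, adjusted p = 0.0240), a call lost with library size only and without Sham Chow replicate 2 or Sham HFD replicate 4 or 5. Among 8 elongases and desaturases 3 were higher, *Elovl5* (0.83, SE 0.15, adjusted p = 4.62e-04), *Fads2* (0.63, SE 0.15, adjusted p = 0.00478) and *Fads1* (0.35, SE 0.11, adjusted p = 0.0281), and the male-biased *Elovl3* was lower. In fatty acid oxidation and ketogenesis 3 of 20 were higher and 0 lower, with 1 lower without Sham Chow replicate 1. *Hadh* (0.55, SE 0.085, adjusted p = 1.49e-04) and *Bdh1* (0.59, SE 0.11, adjusted p = 9.00e-04) were among those that rose. Of 29 peroxisomal and other targets of PPARA, the nuclear receptor for fatty acids, 4 were higher and 9 lower. The lowest p were those of *Cyp4a12b* (-5.28, SE 0.66, adjusted p = 1.69e-05), *Cyp4a12a*, the thioesterase *Acot1* (-1.65, SE 0.32, adjusted p = 0.00126) and the lipase inhibitor *Angptl4* (-0.73, SE 0.15, adjusted p = 0.00183), and both *Cyp4a12* genes also belong to the male-biased list. The number higher rose to 8 without Sham Chow replicate 2.

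Of the lipoprotein genes *Apoa4* rose most. This gene (ENSMUSG00000032080, chromosome 9 from 46240696 to 46243459) encodes an apolipoprotein of triglyceride-rich particles and measured 43.0, 60.0, 70.6, 75.4 and 76.8 CPM in Sham Chow and 606, 616, 813, 892 and 1441 CPM in Sham HFD. The lowest Sham HFD mouse lay far above the highest Sham Chow mouse, a log2 fold change of 3.75 (SE 0.44, adjusted p = 1.10e-05). It was the only gene called higher among the 24 of its list, where 2 were called without Sham Chow replicate 2, while 5 were lower, 3 without Sham Chow replicate 3 or Sham HFD replicate 1, among them *Apom* (-1.1, SE 0.14, adjusted p = 1.59e-05) and the hepatic lipase *Lipc* (-0.47, SE 0.12, adjusted p = 0.00830). With library size only 5 were higher and 4 lower, and the list's median turned from -0.080 to 0.051.

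Of 25 genes of cholesterol synthesis and SREBP2, 5 were lower and 0 higher, against 3 and 2 with library size only. *Tm7sf2*, a sterol reductase, measured 139, 142, 160.5, 169.6 and 170.1 CPM in Sham Chow and 60.4, 68.6, 69.8, 87.3 and 98.9 CPM in Sham HFD, without overlap (log2 fold change -1.02, SE 0.22, adjusted p = 0.00281). *Idi1*, an isomerase of the isoprenoid path, measured 55.7, 58.1, 84.2, 96.6 and 98.0 CPM in Sham Chow and 31.2, 35.0, 35.9, 43.4 and 73.8 CPM in Sham HFD, with Sham HFD replicate 5 inside the range of Sham Chow (log2 fold change -0.84, SE 0.28, adjusted p = 0.0379). *Cyp51* (-0.75, SE 0.22, adjusted p = 0.0185) and *Pmvk* (-0.94, SE 0.28, adjusted p = 0.0203) fell as well. The count ranged from 1, without Sham Chow replicate 3 or Sham HFD replicate 1, to 8, without Sham HFD replicate 5, and was 2 without Sham Chow replicate 4 and 3 without Sham HFD replicate 2, 3 or 4. Bile acid synthesis had 3 of 13 genes lower, *Cyp27a1* (-0.68, SE 0.10, adjusted p = 8.06e-05), *Cyp7b1* and *Cyp2c70* (-1.07, SE 0.22, adjusted p = 0.00200), and 1 higher, *Scp2* (0.20, SE 0.073, adjusted p = 0.0493), which was lost in 8 of the 10 fits without a mouse. In the list of bile acid and sterol transport, the bile acid importer *Slc10a1* fell (-0.59, SE 0.11, adjusted p = 0.00115). The efflux transporters *Abcb1a* (1.11, SE 0.31, adjusted p = 0.0137) and *Abcc4* (0.80, SE 0.24, adjusted p = 0.0238) rose, the latter not without Sham Chow replicate 5 or Sham HFD replicate 4.

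Carbohydrate genes were in part higher and nitrogen genes in part lower. Of 32 genes of glycolysis, gluconeogenesis and glycogen, 9 were higher and 1 lower, against 15 and 1 with library size only. The number lower was 3 without Sham Chow replicate 1 and 2 without Sham HFD replicate 1. *Khk*, the ketohexokinase of fructose metabolism, measured 300.4, 311, 382, 396 and 419.6 CPM in Sham Chow and 488, 535, 544, 546 and 546 CPM in Sham HFD, with all Sham HFD mice above Sham Chow (log2 fold change 0.56, SE 0.11, adjusted p = 0.00117). Pyruvate carboxylase *Pcx* (0.60, SE 0.071, adjusted p = 1.10e-05), the glycogen-branching enzyme *Gbe1* (0.68, SE 0.10, adjusted p = 1.20e-04) and *Fbp1* (0.32, SE 0.067, adjusted p = 0.00241) rose too, while *Pck1*, which commits to gluconeogenesis, fell (-1.11, SE 0.30, adjusted p = 0.0134). Of 36 genes of the urea cycle and amino acid catabolism, 8 were lower and 0 higher. *Cps1*, the entry enzyme of the urea cycle, measured 2186, 3987, 4148, 4592 and 4667 CPM in Sham Chow and 1822, 1833, 1920.3, 1985 and 2153 CPM in Sham HFD, without overlap, although Sham Chow replicate 2 (2186 CPM) lay just above Sham HFD (log2 fold change -1.01, SE 0.20, adjusted p = 0.00114). The count was 3 to 5 without any one of Sham Chow replicates 3 and 5 and Sham HFD replicates 1 to 4.

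Genes of both zones of the liver lobule changed. Of 14 periportal genes 6 were lower and 1 higher, with *Cyp2f2* (-0.81, SE 0.13, adjusted p = 1.51e-04) and *Cdh1* (-1.57, SE 0.31, adjusted p = 0.00127) beside *Cps1* and *Pck1*, and of 16 pericentral genes 4 were higher and 2 lower. *Glul*, the glutamine synthetase of the innermost pericentral cells, measured 631, 722, 768, 809.7 and 889.7 CPM in Sham Chow and 1200.4, 1297, 1372, 1497 and 1572 CPM in Sham HFD, without overlap (log2 fold change 0.86, SE 0.13, adjusted p = 8.94e-05). *Lect2* rose (0.98, SE 0.21, adjusted p = 0.00296), whereas *Cyp1a2* and *Cyp27a1* of the same zone fell.

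Matrix genes rose together in Sham HFD. Of 37 extracellular matrix genes 33 were tested, 26 were higher and 0 lower, in 25 the groups did not overlap, and the median log2 fold change was 0.94. *Col1a2* (ENSMUSG00000029661, chromosome 6 from 4504814 to 4541544), a chain of type I collagen, measured 3.82, 6.47, 6.997, 7.17 and 9.68 CPM in Sham Chow and 19.2, 20.8, 21.2, 24.2 and 24.9 CPM in Sham HFD. *Col3a1* (ENSMUSG00000026043, chromosome 1 from 45311538 to 45349706), the fibrillar collagen of early scar, measured 7.03, 12.8, 18.8, 19.6 and 21.6 CPM in Sham Chow and 42.5, 53.5, 55.4, 63.0 and 64.7 CPM in Sham HFD. *Col14a1* (ENSMUSG00000022371, chromosome 15 from 55307750 to 55520803), a fibril-associated collagen, measured 23.8, 26.7, 30.8, 33.0 and 37.9 CPM in Sham Chow and 72.6, 75.4, 75.4, 75.5 and 79.4 CPM in Sham HFD. In each the lowest Sham HFD mouse lay above the highest Sham Chow mouse, with log2 fold changes of 1.69 (SE 0.19, adjusted p = 6.80e-06), 1.80 (SE 0.21, adjusted p = 1.10e-05) and 1.31 (SE 0.14, adjusted p = 3.71e-06). *Postn*, a matricellular protein, rose likewise (1.40, SE 0.19, adjusted p = 5.46e-05). At least 22 members were higher in every fit without 1 mouse, and 27 with library size only.

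Markers of the cells that make and surround matrix rose in the same mice. Of 11 stellate cell markers tested 9 were higher and 0 lower, with a summed level of 259 to 370 CPM in Sham Chow and 449 to 557 CPM in Sham HFD, led by *Dcn* (0.68, SE 0.10, adjusted p = 9.89e-05), *Colec11* (0.62, SE 0.11, adjusted p = 5.97e-04), *Pdgfrb* (0.98, SE 0.22, adjusted p = 0.00327) and *Lrat* (0.85, SE 0.20, adjusted p = 0.00508). The number called was 4 or 5 without Sham Chow replicate 3, 4 or 5 or Sham HFD replicate 4. *Acta2*, the marker of activated myofibroblasts, did not pass the filter and reached at most 4.81 CPM. In whole liver, more cells of a type and more RNA per cell cannot be told apart. Hepatocyte markers moved the other way, with 7 of 10 lower, a median of -0.36 and a summed level of 87953 to 108726 CPM in Sham Chow and 73948 to 87214 CPM in Sham HFD, and the part of these shifts in other results was not tested. Without Sham Chow replicate 3, 4 hepatocyte markers were lower.

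Of 10 Kupffer cell markers 4 were higher and 0 lower. *Adgre1*, which encodes F4/80, measured 3.64, 4.07, 9.94, 11.6 and 15.3 CPM in Sham Chow and 15.7, 18.3, 24.5, 25.7 and 28.1 CPM in Sham HFD, and the Sham HFD mice were all above Sham Chow (log2 fold change 1.31, SE 0.38, adjusted p = 0.0181). *Clec4f*, which among liver cells marks Kupffer cells, measured 43.5, 46.0, 59.9, 76.5 and 90.9 CPM in Sham Chow and 83.9, 87.0, 90.8, 104 and 114 CPM in Sham HFD, with overlap (log2 fold change 0.60, SE 0.20, adjusted p = 0.0377), a call lost without any single one of 6 mice. This count was 1 without Sham Chow replicate 4 or 5 and 2 without Sham Chow replicate 3 or Sham HFD replicate 4 or 5, and the summed levels of the list, 152 to 373 CPM in Sham Chow and 317 to 444 CPM in Sham HFD, overlapped.

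Markers of lipid-associated macrophages were higher in 7 of 12 and lower in 2. In the fits without a mouse, 5 to 7 were higher. The summed levels of the list, 279 to 329 CPM in Sham Chow and 300 to 376.5 CPM in Sham HFD, overlapped. *Mmp12*, a macrophage elastase, measured 0.121, 0.214, 0.278, 0.628 and 1.19 CPM in Sham Chow and 1.85, 4.14, 4.62, 5.63 and 6.71 CPM in Sham HFD, and *Lgals3*, which encodes galectin-3, measured 1.46, 3.21, 3.42, 3.42 and 3.48 CPM in Sham Chow and 7.05, 7.36, 7.44, 7.59 and 7.67 CPM in Sham HFD. Neither gene's groups overlapped (log2 fold changes 3.18, SE 0.56, adjusted p = 4.65e-04 and 1.30, SE 0.25, adjusted p = 0.00115). *Cd63* rose as well (1.498, SE 0.30, adjusted p = 0.00169). The members that fell were *Fabp5*, which hepatocytes also express, and *Cd9* (-0.58, SE 0.15, adjusted p = 0.00831).

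**Figure D4:**
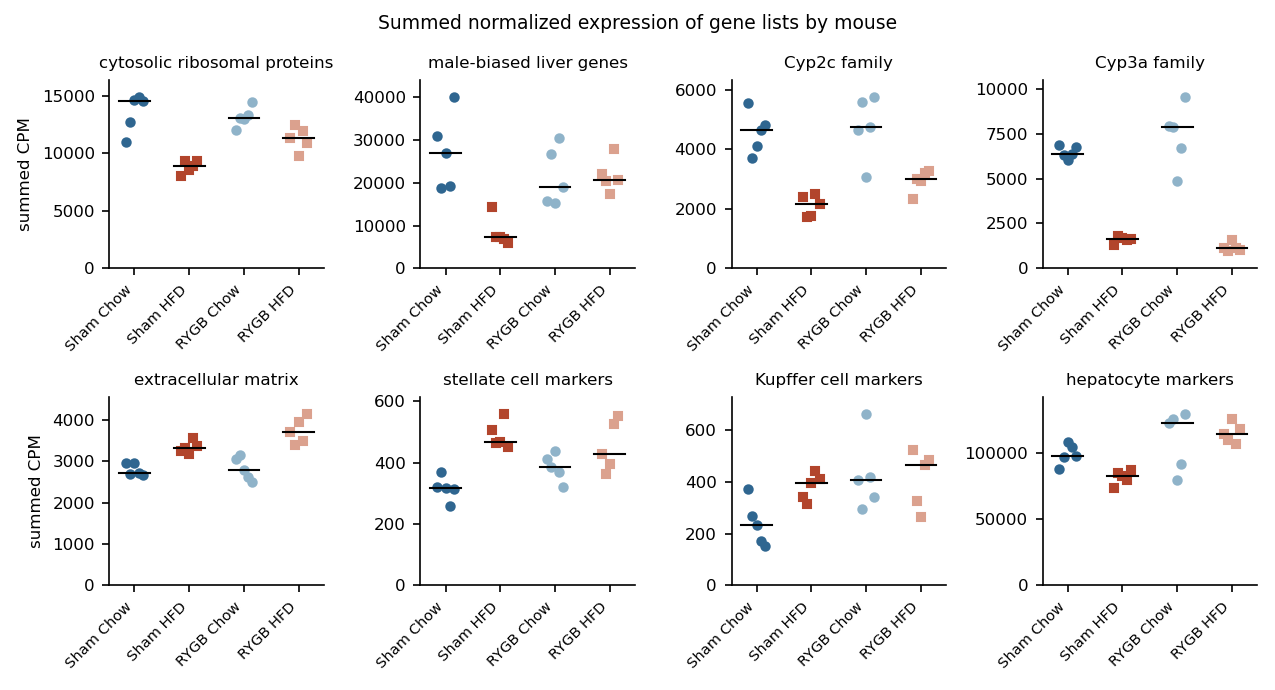
Summed normalized expression (CPM) of 8 gene lists in each of the 20 mice by group, with black lines at the group medians and axes that start at 0. Ribosomal proteins, male-biased genes and the Cyp2c and Cyp3a families are lower in every Sham HFD mouse than in every Sham Chow mouse, matrix genes and stellate cell markers are higher, and Kupffer cell markers overlap.

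More acute phase genes rose than fell, while their summed level was lower. Of 22 tested, 9 were higher and 2 lower, the latter 1 in 8 of the 10 fits without a mouse. *Lcn2*, the siderophore-binding lipocalin, measured 0.880, 1.86, 2.00, 2.36 and 2.46 CPM in Sham Chow and 13.6, 13.7, 20.9, 21.6 and 33.8 CPM in Sham HFD, without overlap (log2 fold change 3.43, SE 0.47, adjusted p = 4.86e-05). *Saa2*, a serum amyloid A protein with a close copy in *Saa1*, measured 4.07, 4.92, 5.02, 5.58 and 11.8 CPM in Sham Chow and 24.3, 29.9, 37.7, 40.3 and 66.0 CPM in Sham HFD, also without overlap (log2 fold change 2.65, SE 0.46, adjusted p = 4.38e-04), and *Orm3* rose (2.32, SE 0.45, adjusted p = 0.00118). *Serpina3k*, a far more abundant serpin of the same list, measured 7842, 8158, 9706, 9947 and 11632 CPM in Sham Chow and 2394, 2871, 2917, 3102 and 4615 CPM in Sham HFD, so that no Sham HFD mouse reached Sham Chow (log2 fold change -1.57, SE 0.18, adjusted p = 1.10e-05). The sum over the list was 17134 to 22049 CPM in Sham Chow and 13949 to 16202 CPM in Sham HFD.

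Complement and coagulation genes changed in both directions. Of 26 complement genes 8 were lower and 5 higher, but with library size only 6 and 6. *C8b* (ENSMUSG00000029656, chromosome 4 from 104766317 to 104804548), a chain of the membrane attack complex, measured 235, 256, 329, 332 and 349 CPM in Sham Chow and 59.4, 61.7, 70.0, 77.0 and 100.4 CPM in Sham HFD, without overlap and with a log2 fold change of -2.03 (SE 0.16, adjusted p = 5.33e-08). *C8a*, its partner chain, measured 610.3, 670.1, 693, 702 and 794 CPM in Sham Chow and 249, 306, 306, 357 and 438 CPM in Sham HFD, again without overlap (log2 fold change -1.07, SE 0.12, adjusted p = 6.10e-06). *C6* and *C1ra* (-0.59, SE 0.09, adjusted p = 1.27e-04) fell too, and *C3*, one of the most abundant of all transcripts that fell, was at -0.47 (SE 0.11, adjusted p = 0.00335). Of 27 coagulation genes 9 were lower and 3 higher, with *Kng1* (-0.49, SE 0.083, adjusted p = 3.88e-04), *F10* (-0.49, SE 0.087, adjusted p = 5.32e-04), *Serpinc1* (-0.34, SE 0.085, adjusted p = 0.00699) and *F7* (-0.42, SE 0.11, adjusted p = 0.00811) leading, but with library size only 4 were lower and 6 higher. Without Sham Chow replicate 3, 5 were lower. The 3 higher became 0 or 1 without any one of Sham Chow replicates 1, 3 and 5 and Sham HFD replicates 4 and 5. *Fetub*, a fetuin that the liver secretes, measured 416, 483, 485, 508 and 512 CPM in Sham Chow and 229, 243, 251, 253 and 272 CPM in Sham HFD, without overlap (log2 fold change -0.95, SE 0.092, adjusted p = 2.08e-06).

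Part of the interferon and chemokine genes rose. Of 30 interferon-stimulated genes 13 were higher and 0 lower, with a median of 0.64. *Ifit1* measured 6.42, 6.93, 7.68, 8.93 and 9.21 CPM in Sham Chow and 13.2, 17.4, 17.5, 20.5 and 21.9 CPM in Sham HFD, without overlap (log2 fold change 1.20, SE 0.25, adjusted p = 0.00187). *Rsad2* (0.93, SE 0.16, adjusted p = 3.80e-04), *Ifit2* (1.02, SE 0.23, adjusted p = 0.00376) and *Ddx58*, which encodes the RNA sensor RIG-I (0.62, SE 0.12, adjusted p = 9.31e-04), rose as well. Of 35 chemokines, cytokines and their receptors and adaptors 24 were tested, and 14 were higher and 1 lower. *Stap1*, a signaling adaptor, measured 0.788, 1.02, 1.19, 1.30 and 2.78 CPM in Sham Chow and 10.4, 11.9, 13.02, 13.1 and 14.4 CPM in Sham HFD, with the groups far apart (log2 fold change 3.18, SE 0.33, adjusted p = 3.71e-06). *Ccl9*, the member that fell, measured 48.0, 54.2, 58.8, 70.2 and 71.8 CPM in Sham Chow and 17.9, 18.7, 21.0, 24.1 and 29.4 CPM in Sham HFD, also without overlap (log2 fold change -1.44, SE 0.20, adjusted p = 4.58e-05). *Jak3*, a kinase of cytokine receptors (0.74, SE 0.12, adjusted p = 3.14e-04), and the interleukin 1 receptor antagonist *Il1rn* (1.41, SE 0.26, adjusted p = 8.87e-04) rose. The number higher was 8 without Sham Chow replicate 4 or 5 and 9 without Sham HFD replicate 5.

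Most T cell, NK cell and neutrophil markers were near the limit of detection. Only 1 of 15 T and NK cell markers passed the filter, *Il2rb* (0.069, SE 0.32, adjusted p = 0.899), with *Cd3e* at no more than 16 counts in a mouse, and only 1 of 10 neutrophil markers, *Csf3r* (0.52, SE 0.23, adjusted p = 0.103), with *Ly6g* at 0 counts in all 10 mice. *Themis*, best known from T cells, nevertheless measured 0.414, 0.601, 1.27, 2.08 and 2.78 CPM in Sham Chow and 21.5, 21.5, 24.8, 28.04 and 32.6 CPM in Sham HFD. Its groups were far apart (log2 fold change 4.21, SE 0.61, adjusted p = 7.90e-05).

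Of the remaining genes with the largest rises, most were scarce in Sham Chow. *Rbm24*, *A4gnt*, *Ephb2* and *Ttc39a* passed the filter only through Sham HFD and so had to differ, and their rises are descriptions. *Rbm24*, an RNA-binding splicing regulator, measured 0, 0, 0, 0 and 0 CPM in Sham Chow and 0.638, 1.23, 1.94, 2.46 and 3.12 CPM in Sham HFD. It had 0 counts in every Sham Chow mouse, so its fitted log2 fold change is no bound, and against a floor of 3 counts per library Sham HFD was at least 11.7-fold higher (adjusted p = 1.15e-04). *A4gnt*, a glycosyltransferase, measured 0, 0, 0, 0.182 and 0.214 CPM in Sham Chow and 1.67, 1.74, 2.15, 2.96 and 3.59 CPM in Sham HFD, at most 3 counts in a Sham Chow mouse (adjusted p = 1.13e-05). *Ephb2* (4.59, SE 0.66, adjusted p = 7.56e-05), an ephrin receptor, *Ttc39a* (3.90, SE 0.56, adjusted p = 7.90e-05) and *Ly6d* (3.73, SE 0.40, adjusted p = 4.48e-06) complete the 12 largest rises with no overlap. *Serpina4-ps1* and *Gm3839* were passed over among the falls as pseudogene or predicted names, and in all 164 called genes had predicted names.

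Among called genes that rose, those with the most counts included *Selenop* (0.30, SE 0.077, adjusted p = 0.00946), which carries selenium in plasma, *Scp2*, haptoglobin *Hp* (0.46, SE 0.13, adjusted p = 0.0134) and the retinal dehydrogenase *Aldh1a1* (0.46, SE 0.15, adjusted p = 0.0292). Those that fell were *Serpina3k*, *Mup3* (-0.79, SE 0.18, adjusted p = 0.00475), *Apoa1* (-0.49, SE 0.14, adjusted p = 0.0183), *C3*, *Ahsg* (-0.38, SE 0.09, adjusted p = 0.00507) and *Eef1a1*. Calls of *Scp2*, *Aldh1a1* and *Apoa1* were lost in at least 1 alternative fit.

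The same diet contrast in RYGB mice, which shares no mouse with the sham contrast, called far fewer genes. RYGB HFD was above RYGB Chow in 245 (1.99%) and under it in 203 (1.65%). Of the genes called in sham mice 145 (5.46%) were called in the same direction in RYGB mice, which is 32.4% of the genes called there, and 20 were called in the opposite direction. The test of the difference itself called 622 genes (5.06%), of which 495 were among the sham calls. The 622 became 386, 398 and 404 without Sham HFD replicate 3, Sham HFD replicate 5 and Sham Chow replicate 5. In the genes called in sham mice the median size of the log2 fold change was 0.56, and the median in the same direction in RYGB mice was 0.11. Across all tested genes, which are not independent replicates, Pearson's r of the 2 log2 fold changes was 0.23.

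The difference test called unequal shares of the lists, beside 5.06% of all genes and 18.6% of the genes called in sham mice. The change in sham mice is part of this difference. A raised share was thus partly built in for lists with many sham calls, and these counts are descriptions. In male-biased genes it called 15 of 26, and in RYGB mice 1 was higher and 1 lower with diet. *Hsd3b5* had a log2 fold change of 0.79 (adjusted p = 0.441) in RYGB mice and a difference of -7.86 (adjusted p = 7.09e-05). *C8b* (-2.19, adjusted p = 1.99e-05) and *C8a* (-1.51, adjusted p = 6.69e-05) differed likewise, and *Cyp2a4*, at -3.30 (adjusted p = 0.0245) in RYGB mice, differed by 8.64 (adjusted p = 1.60e-04). Of the 78 ribosomal protein genes 15 were called, with a median of -0.23 in RYGB mice. Of the 33 matrix genes 9 were called, with a median of 0.19 in RYGB mice, where 1 was higher. In coagulation 11 of 27 were called, and in RYGB mice 8 were higher and 0 lower. In complement 8 of 26 were called, with 6 higher and 0 lower in RYGB mice. For NRF2 targets these were 6 of 15, with 0 higher and 5 lower in RYGB mice. Among cell type markers, 5 of 10 hepatocyte, 5 of 12 lipid-associated macrophage, 1 of 11 stellate cell and 0 of 10 Kupffer cell markers were called.

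Several detoxification genes fell with HFD after both operations. *Cyp3a11* fell in RYGB mice by a log2 fold change of -3.67 (adjusted p = 2.06e-09), and its difference of 0.92 (adjusted p = 0.0611) was not called, which does not show that the effects were alike. The same held for *Cyp2c29*, at -1.75 (adjusted p = 4.47e-05) with a difference of 0.23 (adjusted p = 0.692), and for *Gsta2*, at -2.27 (adjusted p = 8.23e-06) with a difference of 0.68 (adjusted p = 0.218). Of 22 glutathione transferases 11 were lower with HFD in RYGB mice and 8 in sham mice, and 6 were called in the difference test. In the Cyp2c family 5 of 13 were called, and 2 were lower with HFD in RYGB mice against 11 in sham mice. The medians were -0.43 and -1.05. *Wdfy4*, which takes part in antigen cross-presentation (1.40, SE 0.22, adjusted p = 1.77e-04), *Stap1*, *Jak3*, the F-box protein *Fbxl21* (1.26, SE 0.19, adjusted p = 1.49e-04) and *Dglucy* (0.93, SE 0.10, adjusted p = 5.16e-06), an enzyme of D-glutamate metabolism, rose in sham mice. The paper places these genes among those that HFD changed in the same direction after both operations, at an unadjusted p under 0.05. It also counts *Dglucy* among the genes that RYGB changed in the direction opposite to obesity. *Serpina11* fell in sham mice (-0.47, SE 0.12, adjusted p = 0.00924) with a difference of -0.80 (adjusted p = 0.00941).

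The genes with the smallest p in the difference test among those called in sham mice included *C8b*, *C8a*, *Hsd3b5*, *Acnat2*, *Anxa2*, *Cyp2a4* and *Tbc1d30*. *Acnat2*, an acyltransferase of fatty acyl conjugates, measured 14.5, 16.9, 18.3, 19.0 and 23.4 CPM in Sham Chow and 52.3, 57.4, 77.4, 77.6 and 79.3 CPM in Sham HFD, without overlap (log2 fold change 1.90, SE 0.21, adjusted p = 6.36e-06, difference 2.57, adjusted p = 7.09e-05). *Anxa2*, a calcium- and membrane-binding annexin, measured 4.18, 7.001, 9.47, 9.71 and 9.80 CPM in Sham Chow and 41.2, 45.4, 57.6, 62.9 and 65.9 CPM in Sham HFD, again without overlap (log2 fold change 2.76, SE 0.20, adjusted p = 2.74e-08, difference 2.38, adjusted p = 7.09e-05). *Tbc1d30* fell in sham mice (-1.34, SE 0.19, adjusted p = 7.62e-05) and rose in RYGB mice at 0.75 (adjusted p = 0.0279).

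**Figure D5:**
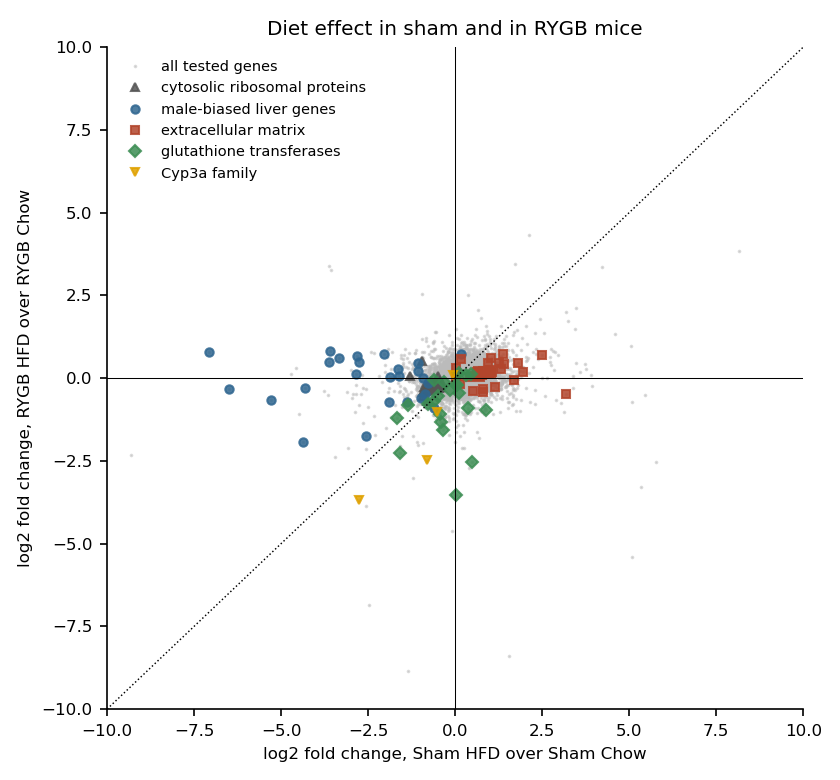
Log2 fold change of HFD over chow in sham mice (x axis) and in RYGB mice (y axis) for the 12289 tested genes (grey) and members of 5 lists, with a dotted line where both are equal. Male-biased genes spread along the x axis with a median of -1.98 in sham mice and 0.044 in RYGB mice, while *Cyp3a11* lies low on both axes.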

How the data were processed

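The authors deposited 1 table of raw counts per gene for 20 mice. They trimmed stranded, poly(A)-selected reads with Trimmomatic 0.36, aligned them to mm10 with HISAT2 2.1.0 and counted them with featureCounts 1.5.0-p3, as the submitters' processing notes list. The strand and multimapping settings and the annotation release were not given in the sources used here, so reads of close copies and overlapping genes are uncertain. Counts were used as deposited.

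The 12289 of 54532 genes that reached a CPM of 2, before TMM scaling, in 3 or more mice were fitted with edgeR 4.0.16 in R 4.3.3 (TMM factors, quasi-likelihood test, 1 mean for each of the 4 groups, 16 residual degrees of freedom), with Benjamini-Hochberg adjustment over all tested genes and a threshold of 0.05. All adjusted p are from this test. The test was checked on simulated counts. CPM printed for each mouse use TMM-scaled library sizes. Positions are from GENCODE M21 on GRCm38. Pairs with a shared replicate number did not deviate together (correlations from -0.060 to 0.095), and the numbers were not used to pair mice.

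Named genes were the 12 largest changes in each direction among called genes without overlap, the 6 called genes in each direction with the most counts, the 4 members of each list with the smallest p, the 8 with the smallest p in the difference test, and 10 that the study names. Some genes that meet this rule are not reported here. *Cd9*, *Cyp2b10*, *Cyp2c38*, *Cyp2c40*, *Cyp2c69*, *Gdf15*, *Ghr*, *Jak2*, *Stat5b*, *Rpl41* and *Rps10* were named after their values were seen. Members and lists were chosen with earlier results of these data known, and the ribosomal, proteasome and detoxification lists echo the study's own account of these samples, so none is independent evidence. Alternatives were scaling by library size only or by RLE factors, DESeq2 1.42.0, limma-voom (limma 3.58.1), a fit of all genes with a count, a filter at a CPM of 5, only the 10 sham mice, a replicate block, and leaving out each mouse in turn. Figures were drawn with matplotlib 3.10.9.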

Additional observations from a re-analysis of the deposited data

Results flagged for a closer look

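Among 120 groups of 5 mice, over the 60 genes shown mouse by mouse, 13 held a mouse that stood apart from the other 4 by Dixon's criterion, which chance meets in about 1 of 20 groups. Sham HFD replicate 1 stood high for *Hsd3b5* (4.87 CPM), *Serpina1e* (517 CPM), *Slco1a1* (234 CPM) and *Mup7* (1057 CPM). In Sham Chow, replicate 5 stood apart for *Lgals3* (1.46 CPM), replicate 3 for *Saa2* (11.8 CPM), replicate 4 for *Stap1* (2.78 CPM), replicate 1 for *Eef1a1* (4145 CPM) and *Cyp2c29* (1951 CPM) and replicate 2 for *Cidec* (64.0 CPM) and *Cps1* (2186 CPM). In Sham HFD, replicate 5 stood apart for *Idi1* (73.8 CPM) and replicate 4 for *Khk* (488 CPM).

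For 35 of the 60 genes the diet effect differed between sham and RYGB mice in the test of the difference (edgeR, adjusted p under 0.05), beside 5.06% of all tested genes. Most of the 60 were named for their change in sham mice, which is part of this difference. A high share was thus built in, and the count is a description. The values here are the log2 fold change in sham mice less that in RYGB mice. Among male-biased genes and plasma proteins these were -7.86 for *Hsd3b5*, -4.02 for *Serpina1e*, -2.98 for *Slco1a1*, -4.12 for *Mup7*, -2.19 for *C8b*, -1.51 for *C8a*, -1.32 for *Serpina3k* and -0.98 for *Fetub*. Female-biased genes differed the other way, at 5.98 for *Cyp2b9*, 8.64 for *Cyp2a4*, 5.79 for *Hao2* and 4.17 for *Slc22a27*. Of the growth hormone axis, *Igf1* was at -0.77 and *Igfbp2* at -2.15. Ribosomal *Rpsa* was at -0.54 and *Rps4x* at -0.34. Matrix and macrophage genes were at 1.04 for *Col14a1*, 1.74 for *Col1a2*, 1.34 for *Col3a1*, 3.67 for *Mmp12* and 1.56 for *Lgals3*. *Saa2* was at 2.64 and *Ccl9* at -1.11. Among metabolic genes the differences were -2.68 for *Cyp2c54*, 1.85 for *Cyp2c39*, 3.46 for *Apoa4*, 1.70 for *Cd36*, -3.24 for *Fabp5*, -1.21 for *Tm7sf2*, -2.06 for *Idi1*, -1.03 for *Cps1*, 0.80 for *Glul* and 0.85 for *Khk*. *Acnat2* (2.57) and *Anxa2* (2.38) were chosen by this test, a rule that *Hsd3b5* and *Cyp2a4* also met. *C8b* and *C8a* were likewise among its smallest p.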

How the results depend on the processing

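Of 194 named genes called in the sham comparison, 159 kept the call in all 18 alternatives, and over 4172 pairs of a gene and an alternative 146 lost a call, 30 gained 1 and 0 changed direction. DESeq2 lost 0 of these calls, limma-voom 3 and library size only 10. Sham calls with library size only were 2279 higher and 554 lower against 1337 and 1319, and the medians of 8 of 56 lists changed sign with it (apolipoproteins, bile acid and sterol transport, glucuronidation and sulfation, insulin signaling, complement, core clock, B and plasma cells, erythroid). It also raised the number higher from 3 to 6 in lipid droplet and in fatty acid oxidation genes, from 4 to 7 in PPARA targets, from 1 to 3 in glutathione transferases, from 2 to 4 in conjugating enzymes and from 0 to 2 in the urea cycle list. With only the 10 sham mice *mt-Co1*, *mt-Nd2*, *Pecam1* and the clock gene *Bhlhe41*, among others, were also called. Without each sham mouse in turn, between 2009 (without Sham Chow replicate 5) and 2647 genes were called, 1010 to 1332 higher and 999 to 1315 lower. A replicate block called 1281 higher and 1254 lower, 2408 of them shared with the fit without it, and lost 6 named genes. In RYGB mice DESeq2 called 751 genes (399 higher, 352 lower) against 448, and without a filter 157 were higher. Leaving out 1 RYGB mouse gave 253 to 416, with 122 to 234 higher and 114 to 194 lower. The total was 262, 253 and 264 without RYGB HFD replicates 1, 3 and 4. The difference test called 386 to 802 genes without 1 mouse, lowest without Sham HFD replicate 3 (386), Sham HFD replicate 5 (398) and Sham Chow replicate 5 (404). The causes were not tested. Depth limits what can be said of genes near a CPM of 2.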

Other observations

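Of 25 iron genes 4 were higher and 2 lower, the former 1 or 2 without any of Sham Chow replicate 3 and Sham HFD replicates 3, 4 and 5, and the latter 4 without Sham Chow replicate 1. Transferrin receptor 2, *Tfr2*, was at -0.30 (SE 0.068, adjusted p = 0.00399), and transferrin, annotated as *Trf*, also fell. Of 30 genes of endoplasmic reticulum stress and folding 5 were lower and 2 higher, against 1 and 5 with library size only. *Xbp1*, a transcription factor of the unfolded protein response, measured 229.7, 267, 278, 286 and 294 CPM in Sham Chow and 156, 168, 174, 176 and 213 CPM in Sham HFD (log2 fold change -0.61, SE 0.13, adjusted p = 0.00296), while *Sesn2* (0.90, SE 0.20, adjusted p = 0.00354) and *Atf3* (1.80, SE 0.41, adjusted p = 0.00417) rose. The number lower was 2 or 3 without Sham Chow replicate 1 or 2 or Sham HFD replicate 2 or 3.

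Secreted factors of the liver moved both ways, with 6 of 23 hepatokines higher and 7 lower, against 8 and 6 with library size only. *Inhba*, an activin subunit, was at -1.07 (SE 0.20, adjusted p = 8.54e-04), and *Gdf15* at 1.61 (SE 0.40, adjusted p = 0.00706). Of 22 nuclear receptors and coregulators, *Pparg* (0.62, SE 0.15, adjusted p = 0.00571) and *Esr1* (0.77, SE 0.23, adjusted p = 0.0204) were higher and *Hnf4a* (-0.43, SE 0.13, adjusted p = 0.0267) lower, against 4 higher and 0 lower with library size only, and the call of *Hnf4a* was lost in 6 alternatives. Of 17 insulin signaling genes 1 was called, *Grb14*, which was lower (-0.34, SE 0.10, adjusted p = 0.0152), while with library size only 3 were higher and 0 lower. Of 16 cell cycle genes tested 5 were higher, with *Mcm2* at 1.16 (SE 0.25, adjusted p = 0.00257) and *Ccnd1* at 1.71 (SE 0.37, adjusted p = 0.00299), and 2 lower, against 9 and 0 with library size only. The 2 became 0 or 1 in each fit without a mouse other than Sham Chow replicate 2.

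Of 10 genes of MHC class II presentation 2 were higher. Among 18 clock genes edgeR called 0, with 2 lower at an unadjusted p under 0.05. Without Sham Chow replicate 1 or Sham HFD replicate 2, 1 was called lower, *Bhlhe41*. For other cell types, 2 of 5 monocyte, 1 of 3 biliary and 1 of 4 adipocyte markers tested were higher. The monocyte count was 1 without any one of Sham Chow replicates 3, 4 and 5 and Sham HFD replicates 2 and 5, and the adipocyte count 0 without any one of Sham Chow replicates 3 and 5 and Sham HFD replicates 1, 2 and 4. Of other markers, 0 of 5 B and plasma cell, 0 of 5 erythroid and 0 of 1 pancreatic acinar markers were called by edgeR or DESeq2, with 1, 0 and 0 at an unadjusted p under 0.05.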
